A study of Mus musculus with 10 samples.

Results

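Transcripts of the fibrillar collagens and of the proteins that fold, trim and cross-link them were followed in mouse hearts over 10 arrays. The members are Col1a1, Col1a2, Col3a1, Col5a1, Col5a2, Lox, Loxl1, Loxl2, Pcolce and Serpinh1. A probe set, the group of short probes that reads a transcript, was taken where the platform annotation gave a member's symbol alone, which chose 21 of 45037 probe sets and covered 9 of the 10 genes. Loxl2 has no probe set of its own symbol alone, so no level is given for it. Each gene is described by its brightest probe set and then by its others.

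The hearts came from male SV129 littermates 32 weeks old. KO mice (PKCz −/−) lacked PKCz, an atypical protein kinase C, and WT mice did not. They were infused for 14 days through osmotic minipumps with angiotensin II (AngII), a blood-pressure-raising peptide used to enlarge the heart, at 432 µg per kg per day, or with PBS, its solvent. The groups are KO AngII (n = 2, arrays 3 and 4), KO PBS (n = 3, arrays 2, 3 and 4), WT AngII (n = 3, arrays 2, 3 and 4) and WT PBS (n = 2, arrays 3 and 5). A further label calls the PBS mice untreated. The labels give neither the tissues in which the kinase was deleted nor the part of the heart taken. Nothing in them states that each array is a different animal, so the p-values below speak for the scatter among these arrays, which may be technical.

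Fibrillar collagens are triple helices of alpha chains that assemble outside the cell into the ropes that hold the heart muscle together. Type I collagen gives stiffness, type III collagen gives compliance, and type V collagen starts fibrils and limits their width. The chains are folded in the endoplasmic reticulum, lose their end propeptides after secretion, and are cross-linked by copper-dependent oxidases. In the heart most of this is made by fibroblasts, and its excess is called fibrosis.

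Values are log2 signals from a robust multi-array average (RMA), so 1 unit is a 2-fold step, and levels of different probe sets are not comparable. The array medians lay between 6.13 and 6.24. WT AngII 2 stood apart: 433 of the 45037 probe sets read over 1 log2 unit above each other array there, against 27 on the next such array (WT PBS 5). Every comparison is therefore given with and without it. Bacterial poly-A control RNAs, spiked in before labelling, split the arrays in 2 batches. Their mean read 6.90 to 7.08 on KO AngII 3, KO AngII 4 and KO PBS 4 and 12.86 to 13.33 on the other 7 arrays. Beta-actin's 3' probe sets exceeded its 5' ones by 0.74 to 0.83 in the low batch and by 0.92 to 1.70 in the high batch. The KO AngII group lay wholly in the low batch and both WT groups wholly in the high one, so a KO to WT difference under AngII and the batch can be separated only through KO PBS. Prkcz, the gene of PKCz, read 5.70 to 5.87 on the KO arrays and 6.23 to 6.45 on the WT arrays by its brightest probe set, with no overlap. Its other 2 probe sets overlapped, and whether any of them falls in the deleted stretch is unknown here. A list of 10 cardiomyocyte genes averaged 14.02 to 14.18 on every array.

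Promoter windows were at hand for 5 of the 9 measured genes (RefSeq, GRCm38.p6, 250 bases before to 50 after the start). Those of Col1a2 and Col3a1 are printed because these genes showed some of the largest AngII differences in KO hearts, and that of Serpinh1 because its difference was the smallest. They lie at chr6:4505368-4505667 (plus strand), chr1:45311288-45311587 (plus strand) and chr7:99353190-99353489 (minus strand). Capitals mark matches, on either strand, to the CCAAT box (those letters), the TATA box (TATAAA), the Smad element (CAGAC), the GC box (GGGCGG) and the AP-1 element (TGANTCA).
Col1a2: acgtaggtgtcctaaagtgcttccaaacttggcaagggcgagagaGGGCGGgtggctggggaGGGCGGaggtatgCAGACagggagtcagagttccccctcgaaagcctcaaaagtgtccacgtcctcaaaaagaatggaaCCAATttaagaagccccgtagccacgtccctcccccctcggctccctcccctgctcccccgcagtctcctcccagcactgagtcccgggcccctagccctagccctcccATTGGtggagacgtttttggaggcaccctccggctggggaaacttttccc
Col3a1: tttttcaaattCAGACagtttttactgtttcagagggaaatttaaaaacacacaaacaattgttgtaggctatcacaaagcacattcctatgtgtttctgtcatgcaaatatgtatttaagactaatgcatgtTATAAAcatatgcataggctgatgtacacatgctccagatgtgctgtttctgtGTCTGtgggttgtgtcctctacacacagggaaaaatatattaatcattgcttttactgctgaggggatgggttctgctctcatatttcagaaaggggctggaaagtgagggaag
Serpinh1: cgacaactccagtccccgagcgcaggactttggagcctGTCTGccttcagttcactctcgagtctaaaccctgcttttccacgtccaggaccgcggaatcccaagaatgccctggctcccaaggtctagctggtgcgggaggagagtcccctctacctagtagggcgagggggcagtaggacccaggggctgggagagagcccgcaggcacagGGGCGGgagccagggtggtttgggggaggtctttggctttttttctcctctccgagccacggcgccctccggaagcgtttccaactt
The Smad element was found in 4 of the 5 member windows and in 49.6% of all 32851 promoter windows. The GC box stood in 4 of 5 and 35.7%. The CCAAT box occurred in 1 of 5 (Col1a2) and 37.4%, the TATA box in 1 of 5 (Col3a1) and 13.6%, and the AP-1 element in 0 of 5 and 7.81%. A letter match is a description and not a binding site, and the printed windows differ in these letters: Col1a2 holds CCAAT and GC boxes, Col3a1 holds the TATA box and no GC box, and Serpinh1 holds a GC box and neither of the other boxes.

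The chains of type I collagen, the main fibril of the heart, were high on both KO AngII arrays and far higher on WT AngII 2. Col1a1 (probe set 1423669_at) read 9.85 and 9.99 on KO AngII 3 and 4, against 8.45, 8.52 and 8.32 on KO PBS 2, 3 and 4. In WT it read 12.80, 8.87 and 9.18 on AngII 2, 3 and 4, against 8.21 and 8.86 on PBS 3 and 5. The KO groups were 1.33 apart at their nearest arrays, while WT AngII 3 lay barely above WT PBS 5 and WT AngII 2 was 2.81 above the next highest array of any group, a 7.02-fold step. Col1a2 (1450857_a_at), the partner chain, read 10.96 and 11.14 on KO AngII 3 and 4, against 9.96, 9.95 and 9.87 on the KO PBS arrays. It read 13.40, 10.31 and 10.33 on WT AngII 2, 3 and 4, against 9.57 and 10.29 on WT PBS 3 and 5. Again the KO groups stood 1.0 apart, and in WT only array 2 was clear of WT PBS 5 by more than a few hundredths.

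Col3a1 (1427883_a_at), the chain of type III collagen, followed the same order. It read 11.58 and 11.82 on KO AngII 3 and 4, against 10.18, 10.38 and 10.27 on the KO PBS arrays. In WT hearts it read 13.60, 10.80 and 10.84 under AngII and 10 and 10.81 under PBS. The nearest KO arrays were 1.20 apart, whereas WT AngII 3 lay just inside the WT PBS range. Over the 9 arrays other than WT AngII 2, Col3a1 and Col1a2 correlated with r = 0.99, a description of arrays that share batches and groups.

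The type V chains differed from each other in the size of the KO gap. Col5a2 (1422437_at) read 8.86 and 9.16 on KO AngII 3 and 4, against 7.86, 8.12 and 7.51 on KO PBS 2, 3 and 4, and 12.04, 8.14 and 8.50 on WT AngII 2, 3 and 4, against 8.04 and 8.44 on WT PBS 3 and 5. Its KO groups were 0.74 apart and its WT groups overlapped. Col5a1 (1416740_at), its partner, read 8.62 and 9.08 on the KO AngII arrays, against 8.28, 8.53 and 8.20 on the KO PBS arrays, and 10.92, 8.41 and 8.58 under AngII in WT, against 8.11 and 8.55 under PBS. The KO gap of Col5a1 was 0.09, and KO AngII 4 stood above the other KO AngII array by more than that gap.

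Serpinh1 encodes HSP47, the chaperone that binds procollagen in the endoplasmic reticulum. Its probe set 1450843_a_at read 10.77 and 10.76 on KO AngII 3 and 4, against 10.95, 10.50 and 10.10 on KO PBS 2, 3 and 4, and 11.54, 10.59 and 10.96 on WT AngII 2, 3 and 4, against 10.62 and 10.44 on WT PBS 3 and 5. Both pairs of groups overlapped, and Serpinh1 was the only measured member whose brightest probe set overlapped between KO AngII and KO PBS. WT AngII 2 was highest here too, by 0.58. Pcolce, the enhancer of the protease that trims the C-propeptide, read (1437165_a_at) 9.90 and 10.32 on the KO AngII arrays, against 9.71, 9.76 and 9.76 on the KO PBS arrays. In WT it read 11.33, 9.97 and 10.19 under AngII, against 9.64 and 9.91 under PBS. By this probe set its groups did not overlap in either genotype, by 0.14 in KO, but its other probe set overlapped in both.

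Lox and Loxl1 encode lysyl oxidases, which start the cross-links of collagen and elastin. Lox (1416121_at) read 7.75 and 7.60 on KO AngII 3 and 4, against 7.10, 6.73 and 6.72 on KO PBS 2, 3 and 4, and 10.78, 6.88 and 6.90 on WT AngII 2, 3 and 4, against 7.23 and 7.54 on WT PBS 3 and 5. WT AngII 3 and 4 lay below both WT PBS arrays while WT AngII 2 lay 3.03 above every other array, the largest such gap among the 9 brightest probe sets. Loxl1 (1451978_at) read 9.34 and 9.50 on the KO AngII arrays, against 8.86, 9.11 and 8.49 on the KO PBS arrays, and 11.94, 8.90 and 9.66 under AngII in WT, against 9.23 and 9.36 under PBS. Its KO groups were 0.23 apart, and WT AngII 3 and 4 lay on either side of WT PBS.

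**Figure D1:**
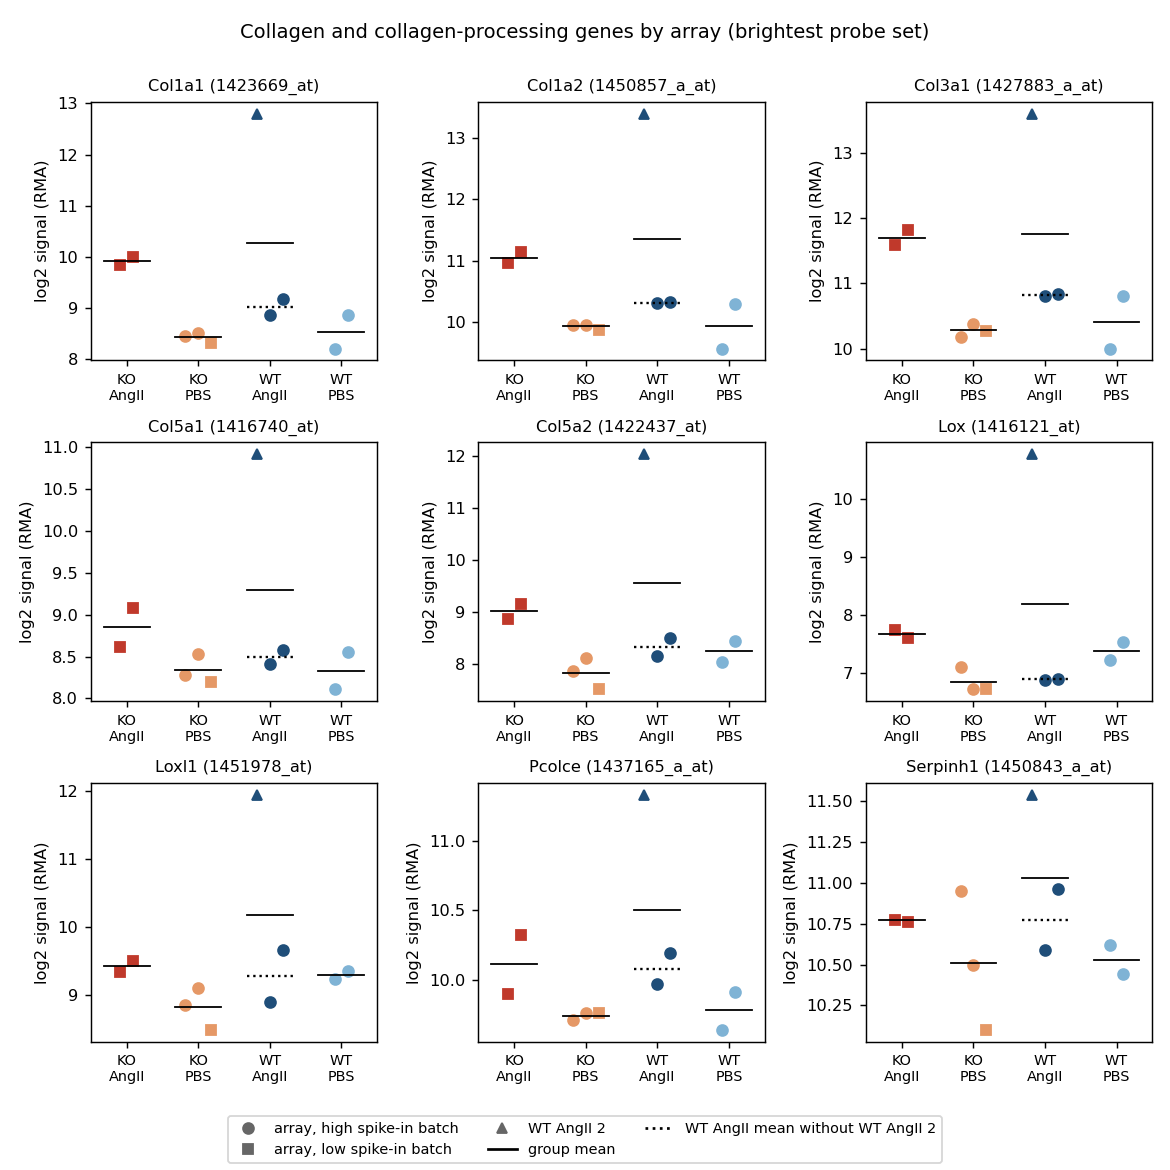
Log2 signal of the brightest probe set of each of the 9 measured genes on every array, by group; horizontal lines are group means and the dotted line is the WT AngII mean without array 2. WT AngII 2 is the highest array in all 9 panels, and both KO AngII arrays lie above all KO PBS arrays in every panel except Serpinh1.

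All 9 genes were highest on WT AngII 2, as 21.6% of all genes were, and 8 of the 9, all but Serpinh1, read over 1 log2 unit above each of the other arrays there, as 1.3% of all 18193 genes did. Among the 9 remaining arrays KO AngII 4 was highest for 6 genes, WT AngII 4 for 2 (Loxl1 and Serpinh1) and KO AngII 3 for Lox. Both KO AngII arrays read above each of the 7 others for 6 of 9 genes (Col1a1, Col1a2, Col3a1, Col5a1, Col5a2 and Lox), against 5.66% of all genes. The mean of the 9 genes, each centred over those 9 arrays, was 0.45 and 0.65 on KO AngII 3 and 4, against −0.24, −0.22 and −0.48 on KO PBS 2, 3 and 4, and −0.08 and 0.18 on WT AngII 3 and 4, against −0.33 and 0.07 on WT PBS 3 and 5. The KO groups were apart on that mean and the WT groups overlapped.

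The 12 other probe sets mostly followed the brightest ones. Of all 21, 15 read over 1 log2 unit above each other array on WT AngII 2 (0.961% of 45037), and 16 did not overlap between KO AngII and KO PBS, with AngII higher (13.7%). The second probe sets of Col1a2 (1423110_at), Col3a1 (1427884_at) and Col5a2 (1450625_at) had larger KO differences than the first: their KO AngII means were 9.48 ± 0.39, 7.89 ± 0.37 and 7.20 ± 0.29 (SD, n = 2), against KO PBS means of 7.92 ± 0.24, 6.18 ± 0.52 and 5.71 ± 0.26 (SD, n = 3). Smaller KO differences than by the brightest were those of Col1a1's second (1455494_at) and Col5a1's dimmest (1416741_at). Their KO AngII means were 8.31 ± 0.06 and 7.32 ± 0.05 (SD, n = 2), against KO PBS means of 7.34 ± 0.23 and 7.07 ± 0.06 (SD, n = 3). Probe sets of 1 gene can disagree. Pcolce's second (1448433_a_at) read 8.46 and 8.40 on KO AngII 3 and 4, against 8.35, 8.53 and 7.74 on KO PBS 2, 3 and 4, and 9.90, 8.39 and 8.95 on WT AngII 2, 3 and 4, against 8.25 and 8.49 on WT PBS 3 and 5, so both pairs of groups overlapped. Loxl1's second (1436063_at) read 6.33 and 6.56 on KO AngII 3 and 4, against 6.18, 6.47 and 6.22 on the KO PBS arrays, and overlapped as well. The other probe sets that overlapped between the KO groups were both of Serpinh1 and the dimmest of Col1a2. The 16 without overlap include the dimmest of Lox, by a gap of only 0.03. Col1a2's dimmest (1446326_at) lay at 3.66 to 4.04 and Lox's dimmest (1437903_at) at 3.92 to 4.30, near the bottom of the scale, where only 3.43% and 6.80% of probe sets read as low or lower, and neither was over 1 log2 unit up on WT AngII 2. Lox's second (1448228_at) read 6.24 and 6.31 on WT AngII 3 and 4, against 6.41 and 6.23 on WT PBS 3 and 5, so the lower WT AngII 3 and 4 values of its brightest probe set did not recur there.

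**Figure D2:**
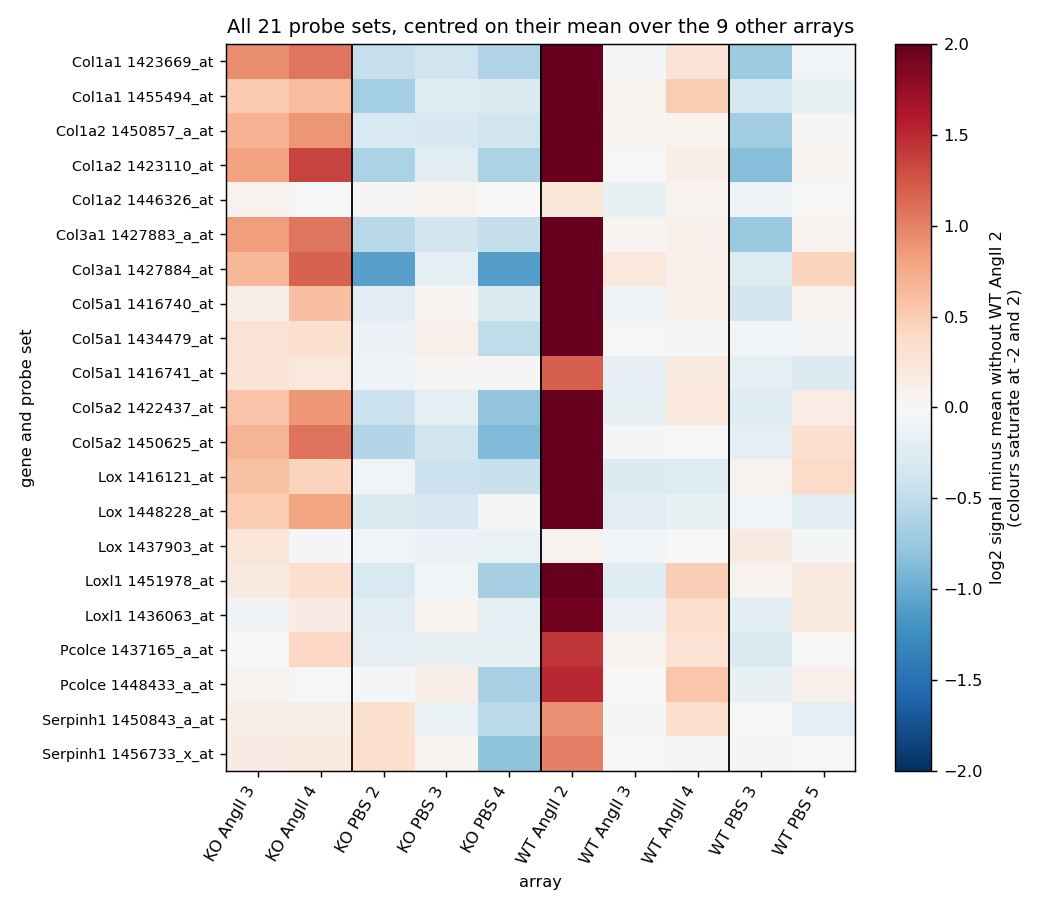
Log2 signal of all 21 probe sets on the 10 arrays, each centred on its mean over the 9 arrays other than WT AngII 2. Colours saturate at 2 units either way; the WT AngII 2 column is dark for most probe sets, the KO AngII columns are above 0 for most, and the Col1a2 1446326_at and Lox 1437903_at lines are pale throughout.

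AngII was set against PBS in KO hearts with limma over all probe sets. With all 10 arrays the 9 genes had a median log2 difference of 0.83 (0.25 to 1.49), against a median of −0.01 over all 18193 genes. Col1a1 stood at 1.49 ± 0.85 (SE), Col3a1 at 1.42 ± 0.63 and Serpinh1 at 0.25 ± 0.27. None of the 9 passed an adjusted p under 0.05, nor did any gene (0%), and 1 of 9, Col3a1, had an unadjusted limma p under 0.05 with AngII higher, against 1.42% of all genes. The groups did not overlap, with AngII higher, for 8 of 9 genes, against 12.5% of all genes. These KO differences do not use WT AngII 2, but the pooled spread behind their SE does.

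Without WT AngII 2 the differences stayed as they were and their errors shrank. Col1a1 then stood at 1.49 ± 0.19 (a 2.81-fold difference, limma adjusted p = 0.0744) and Col3a1 at 1.42 ± 0.19 (2.68-fold, adjusted p = 0.0785). Col5a2 was at 1.18 ± 0.20 (adjusted p = 0.214), Col1a2 at 1.12 ± 0.18 (adjusted p = 0.142) and Lox at 0.83 ± 0.16 (adjusted p = 0.348). Smaller differences were those of Loxl1 (0.60 ± 0.22), Col5a1 (0.52 ± 0.18), Pcolce (0.36 ± 0.15) and Serpinh1 (0.25 ± 0.20), with adjusted p from 0.621 to 0.726. So 0 of 9 passed in limma, as did 0 of all genes, while 8 of 9, all but Serpinh1, had an unadjusted p under 0.05 with AngII higher, against 3.32% of all genes. The 3 chains of types I and III and Col5a2 had the 4 largest differences, and the chaperone and the propeptide enhancer the 2 smallest.

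The count of calls in KO depended on which arrays shared the estimate of spread. Fitted on the 5 KO arrays alone, Col3a1 (1.42 ± 0.13, limma adjusted p = 0.0315) and Col1a1 (1.49 ± 0.15, adjusted p = 0.0346) were higher under AngII, and they were the 2 genes called of 18193 (0.011%). Within the low spike-in batch KO AngII 3 and 4 faced KO PBS 4 alone, with 1 residual degree of freedom. A gene's own spread came from the KO AngII pair. The moderated test drew mostly on the spread shared over all probe sets (median total degrees of freedom 9.5). The lone KO PBS array is assumed to vary likewise. That fit called 4 of 9 (Col1a1, Col3a1, Col5a2 and Col1a2), against 0.0989% of all genes with AngII higher, a count that rests on this assumption. The differences there were 1.61 for Col1a1, 1.50 for Col5a2, 1.43 for Col3a1 and 1.18 for Col1a2, with a median of 0.95 over the 9. KO PBS 4 was the lowest KO PBS array for 7 of the 9 genes, all but Col3a1 and Pcolce, and 8 of the 9 differences, all but that of Pcolce (0.35), were larger against it than against all 3 KO PBS arrays. With the spike-in batch as a block the median was 0.95, with all arrays and without WT AngII 2, and 0 of 9 passed in either fit. With all arrays 0 of 9 had an unadjusted limma p under 0.05 with AngII higher, against 0.517% of all genes. Without WT AngII 2 it was 8 of 9, against 1.56%, and the lowest limma adjusted p was 0.212. The part of the batch in the KO difference was not tested beyond these fits.

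In WT hearts the AngII difference of these genes rested largely on 1 array. With all 10 arrays the median was 0.98 (0.50 to 1.75), led by Col1a1 at 1.75 ± 0.85, Col1a2 at 1.41 ± 0.69 and Col3a1 at 1.35 ± 0.63. None passed in limma (0% of all genes did), and 1 of 9, Pcolce (0.72 ± 0.31), had an unadjusted p under 0.05 with AngII higher, against 1.65% of all genes. Groups did not overlap, with AngII higher, for 3 of 9 genes (Col1a1, Col1a2 and Pcolce), against 7.87%. Without WT AngII 2 the median was 0.25 (−0.49 to 0.49). Col1a1 was at 0.49 ± 0.21 and had the only unadjusted p under 0.05 among those higher, against 4.8% of all genes, and Lox was at −0.49 ± 0.17, the only one lower, against 7.33%. Their limma adjusted p-values were 0.43 and 0.408, and 0 of the 9 passed, against 0% of all genes higher and 0.0055% lower. Non-overlap with AngII higher again held for 3 of 9, now against 23.3%. Over all 21 probe sets it held for 6, against 25.2% of probe sets. Among them was Col1a1's second (1455494_at), at 7.82 and 8.25 on WT AngII 3 and 4, against 7.40 and 7.60 on WT PBS 3 and 5. Col3a1 at 0.42 ± 0.21, Col1a2 at 0.39 ± 0.19 and Pcolce at 0.30 ± 0.16 had unadjusted p-values above 0.05, and Loxl1 at −0.02 ± 0.24 and Col5a2 at 0.08 ± 0.22 were within their SE of 0.

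**Figure D3:**
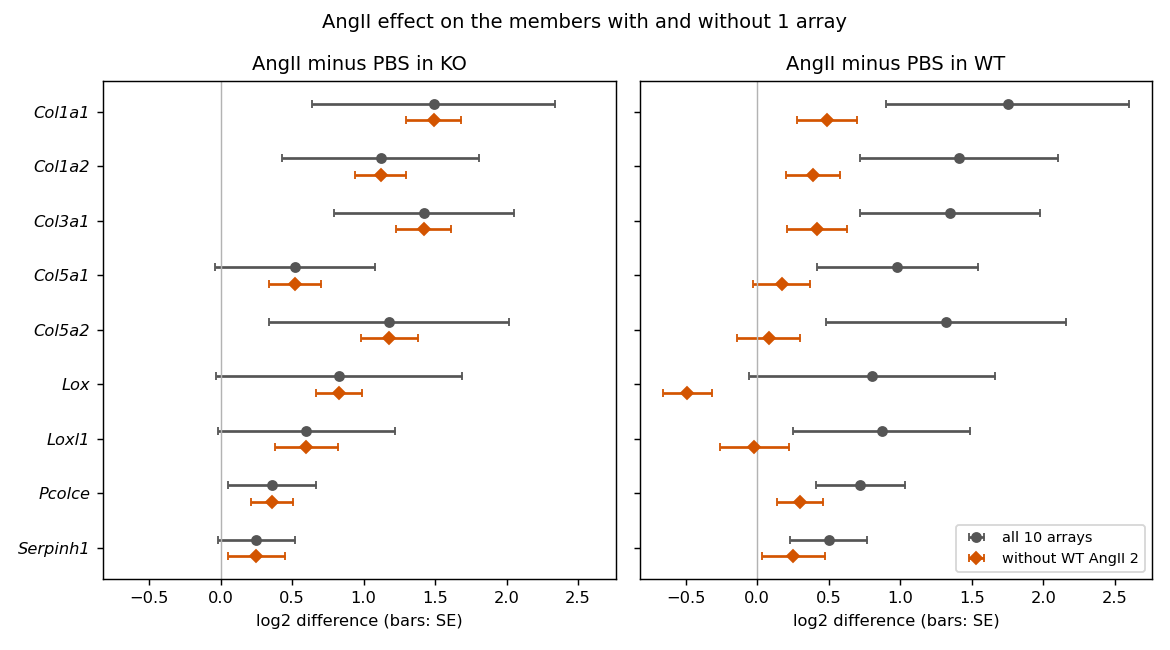
AngII minus PBS log2 difference of each gene in KO (left) and WT (right) hearts, with its SE from limma, over all 10 arrays and without WT AngII 2. In KO the points coincide and the bars shorten; in WT Col1a1 goes to 0.49 without the array, against 1.75 with it, and Lox to −0.49, against 0.80.

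KO and WT hearts under AngII were compared next, and the direction turned with that array. Over all 10 arrays KO minus WT had a median of −0.39, with 0 of 9 called in limma, against 0% higher and 0.0055% lower over all genes. At an unadjusted p under 0.05 there were also 0 of 9 in either direction, against 2.39% higher and 4.25% lower. Without WT AngII 2 the median was 0.69. Col1a1 was then 0.90 ± 0.21 higher in KO, Col3a1 0.88 ± 0.21, Lox 0.79 ± 0.17, Col1a2 0.73 ± 0.19 and Col5a2 0.69 ± 0.22. These 5 of 9 had an unadjusted p under 0.05, against 2.03% of all genes higher, and none passed the adjustment, with adjusted p from 0.779 to 0.871. KO AngII did not overlap WT AngII 3 and 4, with KO higher, for 6 of 9 genes, against 21.2%. Loxl1 (0.14 ± 0.24), Pcolce (0.03 ± 0.16) and Serpinh1 (−0.01 ± 0.22) lay within their SE of 0. With the spike-in batch as a block, fitted through KO PBS, the median without that array was 0.81 and 0 of 9 passed. Col1a1's second probe set (1455494_at) averaged 8.31 on KO AngII and 8.04 on WT AngII 3 and 4, a smaller difference than by its brightest. Col3a1's second (1427884_at) averaged 7.89 and 7.14, also smaller. Those of Col1a2 (9.48 and 8.47), Col5a2 (7.20 and 6.30) and Lox (7.12 and 6.27) differed more. Without WT AngII 2, 14 of all 21 probe sets were higher in KO without overlap, against 23.6% of probe sets.

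The difference between the AngII effects in KO and in WT, the interaction, was −0.26 in the median with all arrays and 0.73 without WT AngII 2. In the second fit Lox stood at 1.32 ± 0.24, Col5a2 at 1.10 ± 0.30, Col1a1 and Col3a1 at 1.0 ± 0.28 each and Col1a2 at 0.73 ± 0.26. These 5 of 9 had an unadjusted limma p under 0.05, against 2.15% of all genes higher, and 0 passed (Lox had the lowest adjusted p, 0.751). By Col1a1's second probe set the AngII means were 8.31 in KO and, without WT AngII 2, 8.04 in WT. The PBS means were 7.34 and 7.50, so its interaction was smaller than by the brightest. By the second probe sets of Col1a2, Col3a1 and Col5a2 the interaction was larger, and by that of Lox smaller. With all arrays 0 of 9 had an unadjusted p under 0.05, against 0.945% higher and 0.467% lower. The AngII effects in the 2 genotypes were thus not shown to differ at the adjusted threshold.

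Under PBS the genotypes lay close by the brightest probe sets of most genes. KO minus WT had a median of −0.11 with and without WT AngII 2, and 0 of 9 were called in limma (0.0055% of all genes were in each direction with all arrays, and 0.0055% higher and 0.044% lower without that array). None of the 9 had an unadjusted p under 0.05 with all arrays, against 2.31% higher and 3.44% lower. KO PBS lay below WT PBS without overlap for 2 of 9 genes (Lox and Loxl1), against 12.1% of all genes. It lay above for 0 of 9, against 12.6%. Over all 21 probe sets, 4 were lower without overlap, against 10.8% of probe sets, and 1 was higher, against 13.2%. Without WT AngII 2 Lox was −0.53 ± 0.16 (unadjusted p = 0.00598, adjusted p = 0.336), the 1 of 9 below 0.05, against 5.9% of all genes lower. Loxl1 at −0.47 ± 0.22 and Col5a2 at −0.41 ± 0.20 came next. By their brightest probe sets Col1a1, Col1a2, Col3a1, Col5a1, Pcolce and Serpinh1 lay between −0.12 and 0.01. Other probe sets differed from these. Col3a1's second (1427884_at) averaged 6.18 on KO PBS and 7.07 on WT PBS, with overlap. Col5a2's second (1450625_at) averaged 5.71 and 6.39, without overlap. Lox's second (1448228_at) averaged 6.25 and 6.32, so the lower KO value of its brightest probe set did not recur there.

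Members varied together to different degrees. Over the 9 arrays without WT AngII 2, each gene's correlation with the mean of the other members was 0.97 for Col1a1 and Col5a2, 0.94 for Col1a2 and Col3a1, 0.89 for Col5a1, 0.79 for Pcolce, 0.69 for Loxl1, 0.67 for Lox and 0.44 for Serpinh1. The collagen chains thus tracked each other most closely and the chaperone least. With WT AngII 2 included all 9 values lay between 0.80 and 1.0, and they rest on that array.

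Of 18184 other genes, those most like the members' mean over the 9 arrays were App (the amyloid precursor protein), Postn, Mfap5, Il1rapl2, Col6a1, Serpinf1, Col6a2 and Cilp, with r from 0.919 to 0.973, among 17 genes over 0.9. Postn, the matrix protein periostin, read 10.43 and 11.21 on KO AngII 3 and 4, against 8.88, 9.18 and 8.76 on KO PBS 2, 3 and 4, and 13.55, 9.92 and 10.16 on WT AngII 2, 3 and 4, against 8.72 and 9.70 on WT PBS 3 and 5. Its KO groups were over 1 log2 unit apart, and all 3 WT AngII arrays lay above both WT PBS arrays. Col6a1, a chain of the beaded-filament collagen VI, read 9.76 and 10.01 on KO AngII 3 and 4, against 9.36, 9.52 and 9.14 on KO PBS 2, 3 and 4, and its partner Col6a2 read 10.22 and 10.57, against 9.91, 9.95 and 9.63. Neither overlapped between the KO groups. Il1rapl2 lay at 4.38 to 4.86 and was lowest on WT AngII 2, unlike the other 7. Over all 10 arrays App (0.995), Col6a1 (0.991), Col14a1, Gxylt2, Serpinf1, Fn1, Col6a2 and Ltbp2 were nearest and 293 genes were over 0.9, a count that the shared peak on WT AngII 2 enters.

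Other genes of the collagen pathway were taken from 6 lists, with 50 of 53 genes measured. In KO, AngII against PBS without WT AngII 2, 0 passed in limma, and 8 were higher and 1 lower at an unadjusted p under 0.05, against the 3.32% and 4.81% of all genes. Most were among the fibril-associated partners, proteins that coat or join fibrils, where 7 of 10 were higher and the median was 0.50. Sparc, a collagen-binding matrix protein, stood at 0.87 ± 0.12 (adjusted p = 0.0785), Bgn (biglycan, a small proteoglycan) at 0.69 ± 0.14 and Fn1 (fibronectin) at 0.66 ± 0.17. In WT, AngII against PBS without WT AngII 2, the same 10 had a median of 0.16, and Sparc (0.52 ± 0.13), Bgn (0.45 ± 0.15) and Lum (0.54 ± 0.21) were the 3 higher at an unadjusted p under 0.05, against the 4.8% of all genes. Sparc read 12.44 and 12.65 on KO AngII 3 and 4, against 11.65, 11.61 and 11.76 on KO PBS 2, 3 and 4, and 13.78, 12.02 and 12.08 on WT AngII 2, 3 and 4, against 11.35 and 11.72 on WT PBS 3 and 5, with no overlap in either genotype.

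The list of procollagen folding and modification genes had a median near 0 in KO without WT AngII 2. The 18 measured genes of that list had a median of 0.02, none was higher at an unadjusted p under 0.05, and P3h4 (−0.57 ± 0.21), which forms a complex with a collagen lysyl hydroxylase, was lower. The medians were 0.11 for the 6 other fibrillar collagens, 0.10 for the 5 measured propeptide-removal genes, 0.20 for 3 further cross-linking genes and 0.20 for the 8 collagen-turnover genes, where Mmp2, a gelatinase, stood at 0.59 ± 0.25. Col11a1, a fibrillar chain best known from cartilage, read 8.71 on WT AngII 2 and 4.86 to 5.55 on the other 9 arrays, so it was high on that array alone. In WT, AngII against PBS without WT AngII 2, the medians of these 5 lists lay between −0.11 and 0.12.

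**Figure D4:**
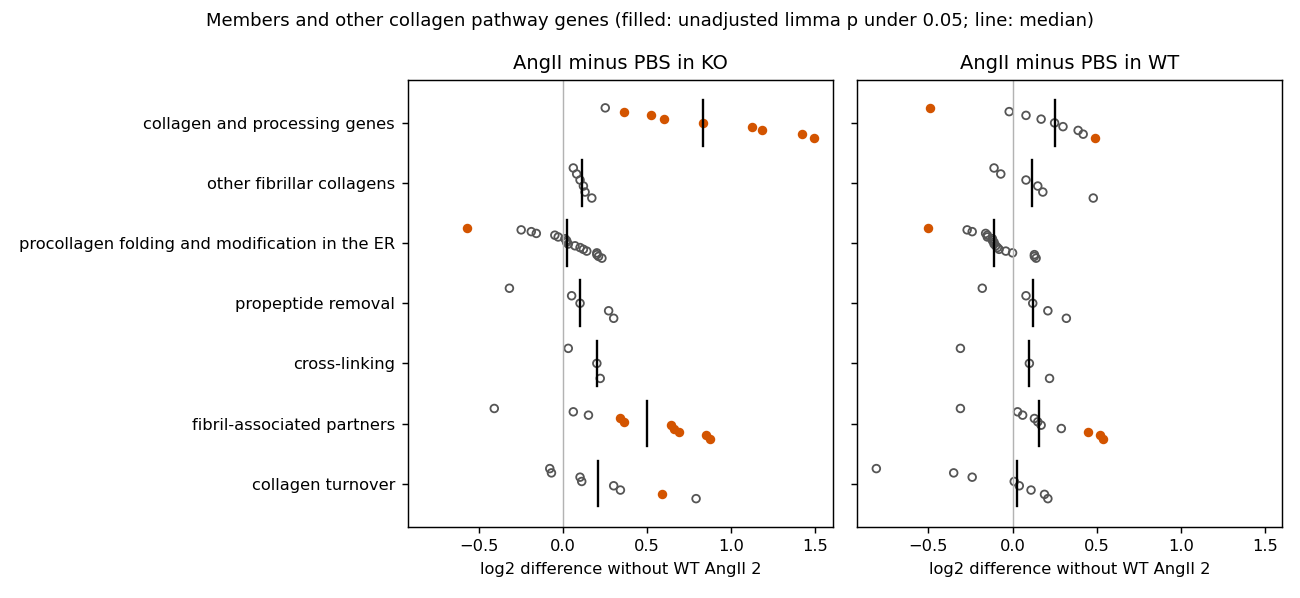
AngII minus PBS log2 difference without WT AngII 2 in KO (left) and WT (right), each point a gene of the members or of 6 collagen pathway lists; filled points have an unadjusted limma p under 0.05 and lines are medians. In KO the members (median 0.83) and the fibril-associated partners (median 0.50) lie right of the other lists.

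Markers of some cell types differed between the groups too. In bulk tissue fewer cells of a type and less RNA per cell cannot be told apart. The counts of genes that did not overlap between the KO groups, with AngII higher, are to be read against the 12.5% of all genes. The 7 activated-fibroblast markers averaged 8.02 to 8.37 on KO AngII, against 7.14 to 7.51 on KO PBS, and 7.83 to 10.51 on WT AngII, against 7.39 to 7.81 on WT PBS, and 5 of the 7 did not overlap in KO. The 12 fibroblast markers averaged 8.79 to 8.99 on KO AngII, against 8.51 to 8.75 on KO PBS, and 8.70 to 9.92 on WT AngII, against 8.59 to 8.85 on WT PBS. Of these 12, 2 did not overlap in KO, a share near that of all genes, while 9 of 12 had a KO difference above 0, with a median of 0.15. Those 2 were Mfap5, a microfibril protein, at 9.76 and 10.14 on KO AngII 3 and 4, against 7.86 to 8.57 on KO PBS, and Islr, at 8.52 and 9.24, against 7.51 to 8.33. Pdgfra and Tcf21, defining genes of cardiac fibroblasts, were 2 of the 3 with a difference below 0. Pdgfra read 8.53 and 8.65 on KO AngII 3 and 4, against 8.67 to 8.85 on KO PBS, and Tcf21 read 7.42 and 7.73, against 7.34 to 7.91. The 10 macrophage markers averaged 8.55 to 8.69 on KO AngII, against 8.25 to 8.43 on KO PBS, and 8.54 to 9.69 on WT AngII, against 8.55 to 8.78 on WT PBS, and 7 of the 10 did not overlap in KO. The 10 smooth muscle and pericyte markers averaged 9.59 to 9.66 on KO AngII, against 9.41 to 9.58 on KO PBS, and 2 of the 10 did not overlap. The 5 atrial markers averaged 8.07 to 8.16 on KO AngII, against 7.83 to 8.08 on KO PBS, and 2 of the 5 did not overlap. The atrial, endothelial, cardiomyocyte, valve and chondrogenic, mesothelial, adipocyte and red blood cell list means overlapped between the KO groups. Yet 3 of 10 cardiomyocyte, 2 of 6 valve and chondrogenic, 1 of 4 mesothelial and 1 of 3 adipocyte genes did not overlap, with AngII higher. With AngII lower, 13.5% of all genes did not overlap. So did 2 cardiomyocyte genes and 1 gene each of the fibroblast, endothelial, smooth muscle and pericyte, atrial and red blood cell lists.

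On WT AngII 2 all 7 activated-fibroblast markers, 9 of 12 fibroblast markers and 9 of 10 macrophage markers had their highest value of the 10 arrays, against the 21.6% of all genes. Their list means there were 10.51, 9.92 and 9.69, against at most 8.37, 9.06 and 8.78 on the other arrays. The smooth muscle and pericyte mean was also highest there (10.28, against at most 9.93), as was the atrial mean (8.60, against at most 8.34), with 4 of 10 and 4 of 5 genes at their highest. The cardiomyocyte list mean was lowest there, 14.02 against 14.12 to 14.18 elsewhere, although these probe sets lie near the top of the scale. The adipocyte mean (3 measured genes) was lowest there too, 6.99 against 7.26 to 7.63. So was the red blood cell mean (2 measured genes), 6.34 against 6.54 to 7.55. The part of these cell types in the collagen values was not tested.

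**Figure D5:**
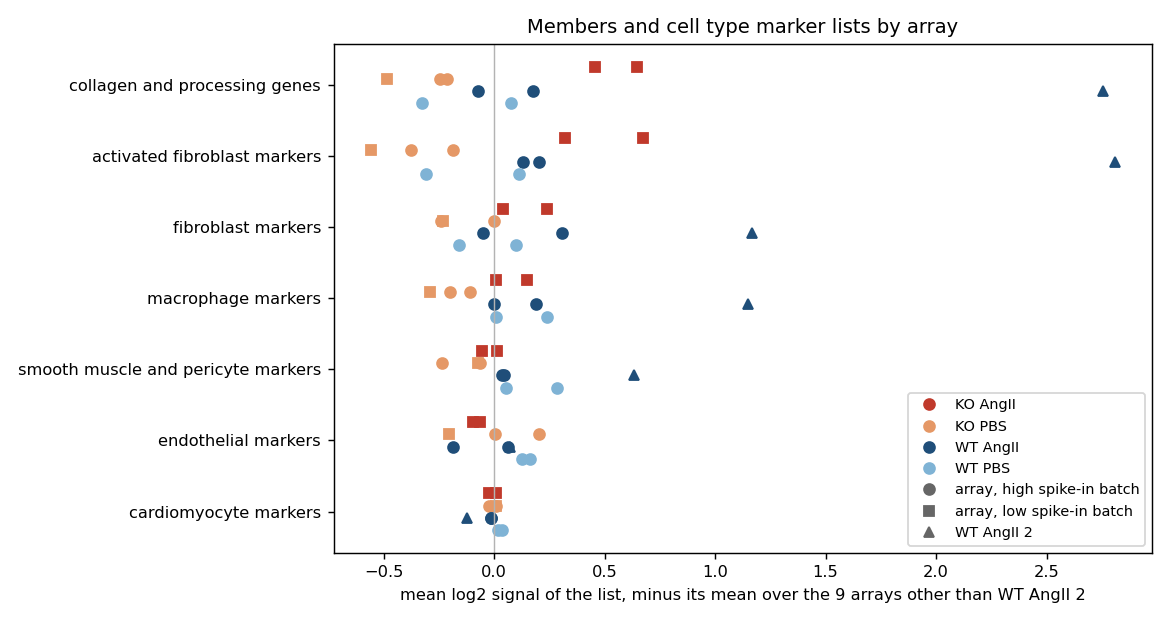
Mean log2 signal of the 9 members and of 6 cell type marker lists on every array, minus the mean of each over the 9 arrays other than WT AngII 2. On WT AngII 2 the members and the activated-fibroblast list both lie over 2 units to the right, and on KO AngII 3 and 4 both lie to the right of every KO PBS array, while the cardiomyocyte list stays near 0.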

How the data were processed

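The deposited table holds log2 signals of 45101 Affymetrix probe sets, computed by the authors with RMA, per the submitters' processing notes. No source used here gives its version. RMA equalises the distributions of the arrays and compresses small differences of dim probe sets. The RNA was total RNA, per the labels' protocols. Tests ran on 45037 probe sets, without 64 controls. Of these, 34945 carried 1 gene symbol in the platform annotation, 932 several and 9160 none. A gene (18193 in all) stands for its brightest probe set, by the mean of the 10 arrays.

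Group means of the 10 arrays were compared by limma 3.58.1 (R 4.3.3; two-sided moderated tests with a mean-variance trend). Benjamini-Hochberg adjustment ran over the 45037 probe sets of each comparison, and an adjusted p under 0.05 is a call. Shares of genes called or not overlapping are given over the 18193 genes unless probe sets are named. The number of arrays limits the precision. Arrays were grouped by their labels. Whether replicate numbers pair the arrays is not known. Over 10 same-number pairs the deviations from the group means correlated from −0.355 to 0.103. Deviations cancel within each group, and the groups are small, so these correlations depend on each other and cannot decide it.

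The genes and lists were chosen with earlier results of these data known. Named were all members, Prkcz, up to 3 genes of smallest p per pathway list and the 8 genes most like the members' mean; Col11a1, Pdgfra, Tcf21, Islr, Mfap5 among the markers and the KO-alone values were singled out after their values were seen. The scripts were tested on simulated data. Alternatives were other scalings, a level filter, other variance settings, array weights, replicate and spike-in blocks, subsets of arrays, averaged probe sets per gene, and the omission of every array in turn; the low-batch fit and leaving out WT AngII 2 with each other array were added after seeing the data.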

Additional observations from a re-analysis of the deposited data

How the results depend on the processing

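AngII minus PBS in KO kept its sign in all 9 genes under each alternative run: none turned in sign. Leaving out WT AngII 2 turned the member median of KO minus WT under AngII to 0.69 and of the interaction to 0.73. Members were called for AngII in KO only, 2 on the KO arrays alone, 4 within the low spike-in batch (1 residual degree of freedom), 4 without WT AngII 2 and KO PBS 4, and 3 each without WT AngII 2 and either WT PBS array. The member genes called stayed at 0 under every other alternative and in each other comparison; the fits without WT AngII 2 alone left 8 of 9 at an unadjusted limma p under 0.05 for AngII in KO.

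Values whose sign turned are given next, and the cause was not tested. With array weights, AngII minus PBS in WT turned to −0.38 in Lox. With array weights, KO minus WT under PBS turned to −0.020 in Col5a1 and 0.069 in Serpinh1. With array weights, KO minus WT under AngII turned to 0.44 in the member median, 0.66 in Col1a1, 0.63 in Col1a2, 0.78 in Col3a1, 0.22 in Col5a1, 0.44 in Col5a2 and 0.67 in Lox. With array weights, the interaction turned to 0.63 in the member median, 0.77 in Col1a1, 0.63 in Col1a2, 0.24 in Col5a1, 0.87 in Col5a2 and 0.25 in Loxl1. With equal array medians, KO minus WT under PBS turned to −0.042 in Col5a1. With probe sets averaged per gene, the interaction turned to 0.030 in Col5a2. With quantile normalisation repeated, KO minus WT under PBS turned to 0.025 in the member median, 0.025 in Col1a1, 0.12 in Col1a2, 0.094 in Serpinh1 and 0.097 in Pcolce. With quantile normalisation repeated, the interaction turned to −0.068 in Col3a1. Within the high spike-in batch, KO minus WT under PBS turned to 0.022 in Col1a2 and 0.20 in Serpinh1. With the spike-in batch as a block, KO minus WT under PBS turned to 0.022 in Col1a2 and 0.20 in Serpinh1. With the spike-in batch as a block, KO minus WT under AngII turned to 0.37 in Serpinh1. With the spike-in batch as a block, the interaction turned to 0.059 in the member median, 0.18 in Col5a2, 0.17 in Serpinh1 and 0.059 in Loxl1. With that block and no WT AngII 2, AngII minus PBS in WT turned to −0.49 in Lox and −0.015 in Loxl1. With that block and no WT AngII 2, KO minus WT under PBS turned to 0.022 in Col1a2 and 0.20 in Serpinh1. With that block and no WT AngII 2, KO minus WT under AngII turned to 0.81 in the member median, 1.07 in Col1a1, 0.81 in Col1a2, 0.89 in Col3a1, 0.57 in Col5a1, 1.17 in Col5a2, 0.62 in Serpinh1, 0.0066 in Pcolce, 0.98 in Lox and 0.64 in Loxl1. With that block and no WT AngII 2, the interaction turned to 0.95 in the member median, 1.12 in Col1a1, 0.79 in Col1a2, 0.49 in Col5a1, 1.42 in Col5a2, 0.42 in Serpinh1, 0.046 in Pcolce and 0.95 in Loxl1. Whether the replicate numbers pair the arrays is not known, so the values blocked by them are a description. The member median of AngII minus PBS was 1.54 in KO and 0.76 in WT with the replicate block, and 0 members were called. With the title number as a replicate block, KO minus WT under PBS turned to −0.21 in Col5a1. With the title number as a replicate block, KO minus WT under AngII turned to 0.079 in the member median, 0.27 in Col1a1, 0.22 in Col1a2, 0.39 in Col3a1, 0.079 in Col5a2 and 0.20 in Lox. With the title number as a replicate block, the interaction turned to 0.58 in the member median, 0.73 in Col1a1, 0.41 in Col1a2, 0.15 in Col5a1, 0.92 in Col5a2, 0.30 in Serpinh1, 0.012 in Pcolce and 0.63 in Loxl1.

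Over fits that left out 1 array, or WT AngII 2 and 1 more, values ran as follows. AngII minus PBS in KO ran from 0 to 4 in the number of members called. AngII minus PBS in WT ran from 0.015 to 1.51 in the member median, −0.054 to 1.42 in Col5a1, −0.12 to 2.03 in Col5a2, −0.65 to 1.46 in Lox and −0.40 to 1.51 in Loxl1. KO minus WT under PBS ran from −0.43 to 0.11 in the member median, −0.43 to 0.22 in Col1a1, −0.37 to 0.35 in Col1a2, −0.53 to 0.28 in Col3a1, −0.21 to 0.23 in Col5a1, −0.23 to 0.20 in Serpinh1 and −0.17 to 0.11 in Pcolce. KO minus WT under AngII ran from −0.90 to 0.74 in the member median, −1.07 to 1.05 in Col1a1, −0.82 to 0.82 in Col1a2, −0.52 to 1.0 in Col3a1, −0.90 to 0.59 in Col5a1, −1.26 to 0.87 in Col5a2, −0.48 to 0.17 in Serpinh1, −0.65 to 0.24 in Pcolce, −1.16 to 0.86 in Lox and −1.38 to 0.53 in Loxl1. The interaction ran from −0.81 to 1.09 in the member median, −0.97 to 1.33 in Col1a1, −0.81 to 1.09 in Col1a2, −0.40 to 1.41 in Col3a1, −0.91 to 0.58 in Col5a1, −0.85 to 1.29 in Col5a2, −0.47 to 0.22 in Serpinh1, −0.62 to 0.27 in Pcolce, −0.63 to 1.47 in Lox and −0.91 to 1.0 in Loxl1.

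Calls over all probe sets moved too: for KO minus WT under AngII there were 2911 with array weights and 5 without them, and for AngII in KO 36 within the low batch and 470 without WT AngII 2 and KO PBS 4, against 0 with all arrays. The limits are the 2 or 3 arrays per group and the single array on which the WT difference largely rests. Further limits are the confounding of KO AngII with the low spike-in batch, and RMA. RMA shares information between arrays and so lets WT AngII 2 touch the others. A group reduced to 1 array borrows its spread from the rest. Probe sets near the bottom of the scale cannot show a lower level.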
